A study of Mus with 3 samples.

Results

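The genes described here encode the mitochondrial respiratory chain and ATP synthase, followed by cell class in the lungs of allergen-challenged wild-type and DJ-1 knockout mice. Members were taken by name: symbols that start with Nduf, Uqcr, Sdh, Atp5, Cox4, Cox5, Cox6, Cox7, Cox8 or mt-, with Cyc1 and Cycs. Of 27998 genes in the count matrices, 111 carry such a name, and 109 had at least 20 unique molecular identifiers (UMIs, each standing for 1 captured RNA molecule) over the 3 libraries. The testis-type subunit genes Cox7b2, with 2 UMIs, and Cox8c, with 0 UMIs, did not reach that floor. Among the 109, 13 lie on the mitochondrial genome and 96 in the nucleus. The mt- members comprise 7 subunits of complex I, 1 of complex III, 3 of complex IV and 2 of complex V. The nuclear members comprise 36 genes of complex I, 4 of complex II, 9 of complex III, cytochrome c, 17 of complex IV, 15 of complex V and 14 assembly factors or related genes.

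Lung cells were profiled by droplet single-cell RNA-seq in 3 libraries, 1 per group, each pooled from 3 female mice aged 6 to 12 weeks. WT PBS came from wild-type mice challenged with PBS, WT OVA from wild-type mice challenged with OVA (ovalbumin, an egg protein widely used as a model allergen), and DJ-1 KO OVA from DJ-1 KO mice challenged with OVA. The title of the WT PBS sample also says OVA, and the sample was grouped by its treatment label and library name. Because mice were pooled and each group has 1 library, the spread between mice is unknown, no test between groups was possible, and intervals in brackets are exact 95% intervals that cover counting error only. The ratio WT OVA over WT PBS is called the comparison with challenge, and the ratio of DJ-1 KO OVA to WT OVA the comparison between genotypes. WT OVA serves both, so they share its errors.

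The respiratory chain passes electrons from NADH, at complex I, and from succinate, at complex II, through complex III and cytochrome c to oxygen at complex IV, and complex V uses the resulting proton gradient to make ATP. The mitochondrial genome supplies core subunits of every complex except complex II, and it is transcribed as long precursors that are cut into single RNAs. All other subunits are nuclear genes, so a complete chain needs RNA from both genomes. DJ-1, the product of Park7, is a protein known for protecting cells against oxidative stress.

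The libraries held 4556, 6406 and 4666 barcodes and 26548669, 24438516 and 17339386 UMIs. These and all later runs of 3 values follow the order WT PBS, then WT OVA, then DJ-1 KO OVA. Filters kept 3855, 5930 and 4438 cells, whose median depth was 4093, 2060.5 and 1653 UMIs. Park7 stood at 135.6, 100.3 and 20.8 CPM (UMIs of a gene scaled to a common library total), so the library labelled DJ-1 KO OVA was the lowest. The source of the remaining molecules was not tested, and the labels do not describe the deleted part. WT PBS and DJ-1 KO OVA shared 372 barcodes, with a smaller cell that held a median of 4.75% of its partner's UMIs, and the smaller cell of each pair was left out. WT OVA shared 6 and 5 barcodes with the other two. Removing cells above 20% mt- UMIs took out 66, 47 and 62 cells and cuts off the top of the quantity described here. Cells were named "X-like" from clusters and marker lists, with the members kept out of the clustering. Markers of alveolar type 2 cells were present in each library, at 36832, 40852 and 21737 CPM, as were those of airway secretory cells, at 39353, 64722 and 65999 CPM. Several other quantities moved with the libraries: ribosomal protein genes took 16.1, 14.2 and 11.2% of UMIs, the nuclear RNA Malat1 took 2.07, 1.65 and 1.43%, and immediate early genes stood at 10737, 13422 and 11758 CPM. Thymocyte markers stood at 21.8, 5.23 and 289 CPM, B cell markers at 736, 604 and 267 CPM. The part of these quantities in the results below was not tested.

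Over all kept cells, RNA from the mitochondrial genome took its largest share in WT PBS and its smallest in DJ-1 KO OVA, while the order of the nuclear share depended on the cells counted. The mt- share was 3.74% of UMIs in WT PBS, 3.34% in WT OVA and 3.096% in DJ-1 KO OVA. The nuclear share was 1.49%, 1.57% and 1.69%. The number of mt- UMIs per nuclear respiratory UMI, a measure that does not use the library total, was 2.51, 2.13 and 1.83. With challenge, the mt- share had a ratio of 0.894 [0.891, 0.897] and the nuclear share 1.05 [1.05, 1.06]. Between genotypes the ratios were 0.926 [0.923, 0.929] and 1.08 [1.07, 1.08]. With each cell counting alike, the nuclear shares no longer rose from library to library, at 1.35%, 1.37% and 1.37%. With both cells of each shared barcode left out, the nuclear share of DJ-1 KO OVA was 1.52%, below that of WT OVA, and its mt- share was 3.18%.

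**Figure D1:**
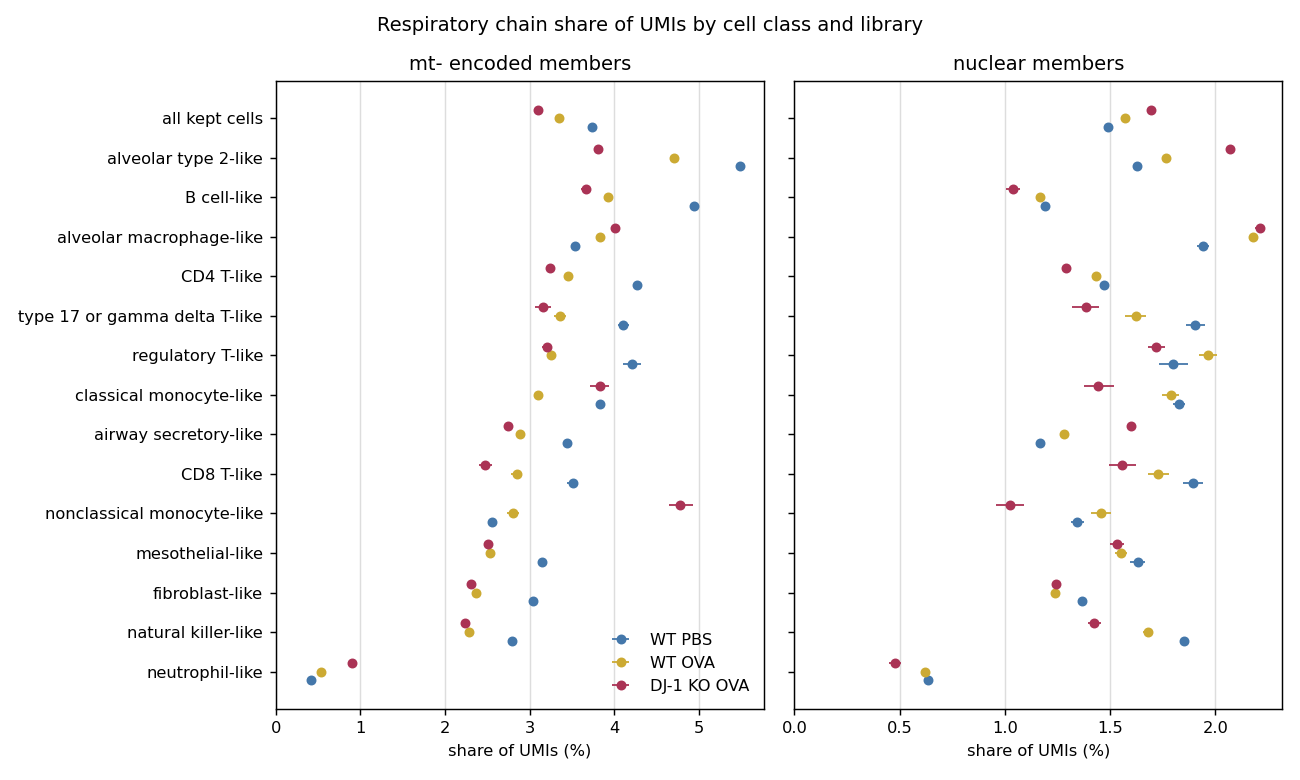
Share of UMIs (percent, x axis) from mt- encoded members, left, and nuclear members, right, in each cell class (y axis) of WT PBS (blue), WT OVA (yellow) and DJ-1 KO OVA (red), with exact binomial 95% intervals for counting error. Alveolar type 2-like cells run from 5.49% down to 3.81% for mt- RNA and from 1.63% up to 2.07% for nuclear RNA, and neutrophil-like cells stay below 1% for each.

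Within classes the mt- share fell below that of WT PBS in WT OVA in 8 of the 11 classes with at least 50 cells in both libraries compared, with an interval below 1 in all 8. B cell-like cells had 4.95, 3.93 and 3.66% mt- UMIs, CD4 T-like cells 4.27, 3.45 and 3.24%, and natural killer-like cells 2.79, 2.28 and 2.24%. CD8 T-like cells had 3.51, 2.85 and 2.48% and type 17 or gamma delta T-like cells 4.11, 3.36 and 3.16%. Fibroblast-like cells, the matrix-producing stroma, had 3.04, 2.37 and 2.31%. In these 6 classes WT PBS was the highest library and the step from WT OVA to DJ-1 KO OVA was the smaller one. The 3 classes where WT OVA was higher were all myeloid: alveolar macrophage-like (1.09 [1.07, 1.10]), neutrophil-like (1.26 [1.22, 1.31]) and nonclassical monocyte-like cells (1.10 [1.07, 1.13]), the last led by different clusters in the 2 libraries (12.2 and 12.4). The median cell went the other way in the first and last of these: among alveolar macrophage-like cells it held 3.45% in WT PBS and 3.36% with OVA, with upper quartiles of 4.09 and 4.42%. In nonclassical monocyte-like cells it held 2.32 and 2.22%, with upper quartiles of 3.58 and 6.38%. Classical monocyte-like cells, also myeloid, were lower (0.810 [0.794, 0.826]). Between genotypes, the mt- share was lower in 10 of 12 classes, with an interval below 1 in 7 and above 1 in 2, alveolar macrophage-like and neutrophil-like cells. With both cells of each shared barcode out, it was lower in 7 of 12: airway secretory-like (2.89 and 4.42%), fibroblast-like (2.37 and 2.39%) and mesothelial-like cells (2.53 and 2.60%) turned higher in DJ-1 KO OVA. This setting takes out deep knockout cells and leaves all 5930 cells of WT OVA. Knockout fibroblast-like cells with a shared barcode had a median of 12809 UMIs, the others 3606. In mesothelial-like cells the medians were 13382.5 and 6533. The part of depth in these changes was not tested.

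The nuclear share differed in direction between classes. Between genotypes, it was lower in 8 of 12 classes, among them B cell-like (0.889 [0.859, 0.920]), CD4 T-like (0.901 [0.885, 0.918]), CD8 T-like (0.901 [0.856, 0.948]), natural killer-like (0.848 [0.827, 0.869]) and regulatory T-like cells (0.876 [0.847, 0.905]). It was higher, with an interval above 1, in 2 epithelial classes, airway secretory-like (1.25 [1.23, 1.27]) and alveolar type 2-like cells (1.17 [1.16, 1.18]). Fibroblast-like cells, led by cluster 16 in WT OVA and by cluster 7.1 in DJ-1 KO OVA, gave 1.00 [0.985, 1.02]. In DJ-1 KO OVA 14.5% of them carried a shared barcode, and with both cells of each pair out their nuclear share was 1.24% in WT OVA and 1.14% in DJ-1 KO OVA. Mesothelial-like cells went from 1.55 to 1.34% on the same terms, from 0.986 [0.959, 1.01] as a ratio with the larger cells kept, and the nuclear share was then lower in 10 of 12 classes. The mean of the class medians per member, with classes weighted alike, was -0.14 on the log2 scale against 0.09 over all kept cells. That mean took only classes with at least 50 cells in all 3 libraries. Airway secretory-like, mesothelial-like and regulatory T-like cells were not in it.

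Single mt- genes did not move together, although those on the same strand come from shared precursors. With challenge, the median of the 13 members was -0.29 on the log2 scale, with 5 members whose interval lay above 0 and 8 below, beside 26.7% and 23.6% of all genes, whose intervals are wider where counts are low. mt-Nd2, a core subunit of the membrane arm of complex I, stood at 1895, 1041 and 733 CPM, the lowest ratio of the 13 (log2 -0.87). mt-Atp6, the proton-channel subunit of complex V, stood at 6366, 4103 and 4063 CPM (log2 -0.63). These were the 2 mt- members past 1.5-fold lower. mt-Nd4, also of complex I, stood at 2904, 2011 and 1597 CPM (log2 -0.53), mt-Nd5 at 550, 400 and 306 CPM (log2 -0.46) and mt-Nd3 at 764, 590 and 644 CPM (log2 -0.37). mt-Co2, of complex IV, stood at 5255, 4128 and 4427 CPM, mt-Nd1 at 1703, 1395 and 1205 CPM and mt-Cytb, the only complex III gene of this genome, at 3105, 2683 and 2338 CPM. In all 8 of these genes WT PBS was the highest library.

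The other 5 mt- genes were higher in WT OVA than in WT PBS. mt-Co1, the catalytic subunit of complex IV, stood at 8726, 9960 and 8480 CPM (log2 0.19) and mt-Co3, another core subunit, at 5464, 6298 and 6555 CPM (log2 0.21). mt-Nd4l stood at 439, 551 and 417 CPM (log2 0.33), and mt-Atp8 at 195, 206 and 139 CPM (log2 0.08). mt-Nd6, the only protein gene on the opposite strand of this genome, was the 1 member past 1.5-fold higher, at 34.1, 64.9 and 52.4 CPM (log2 0.93 [0.80, 1.05]). Several of these genes overlap on the same strand, mt-Atp8 with mt-Atp6 by 43 bases and mt-Nd4l with mt-Nd4 by 7, so their separate counts are uncertain. mt-Nd5 and mt-Nd6 overlap by 14 bases but lie on opposite strands. Between genotypes, the median was -0.23, with 9 intervals below 0 and 3 above, beside 19.2% and 31.8% of all genes, and no member past 1.5-fold. The lowest were mt-Atp8 (log2 -0.57) and mt-Nd2 (log2 -0.51), and the highest mt-Nd3 (log2 0.12) and mt-Co2 (log2 0.10). Without the cells of either library that share a barcode, 5 mt- members passed 1.5-fold lower in DJ-1 KO OVA, and the median was -0.29.

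Several mt- genes kept their direction across classes. With challenge, mt-Nd2, mt-Atp6 and mt-Nd4 were lower in 11 of 11 classes, 3 of the 12 mt- members measured in each, beside 5.79% of 2866 genes, with median log2 ratios over classes of -1.10, -0.80 and -0.87. mt-Co1 was higher in 11 of 11, 1 of 12 beside 5.83%, with a median of 0.09, and mt-Co3 in 10 of 11, with a median of 0.23. mt-Nd6 was higher in all 10 classes where it had enough UMIs, with an interval above 0 in 6. Because these classes come from the same pair of libraries, they are not replicates of the challenge. Between genotypes mt-Nd5 was lower in 12 of 12 classes, 1 of 12 members beside 2.35% of 2089 genes, with an interval below 0 in 8. mt-Nd2, mt-Nd4, mt-Nd4l and mt-Atp8 were lower in 11 of 12, and mt-Co3 higher in 9.

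**Figure D2:**
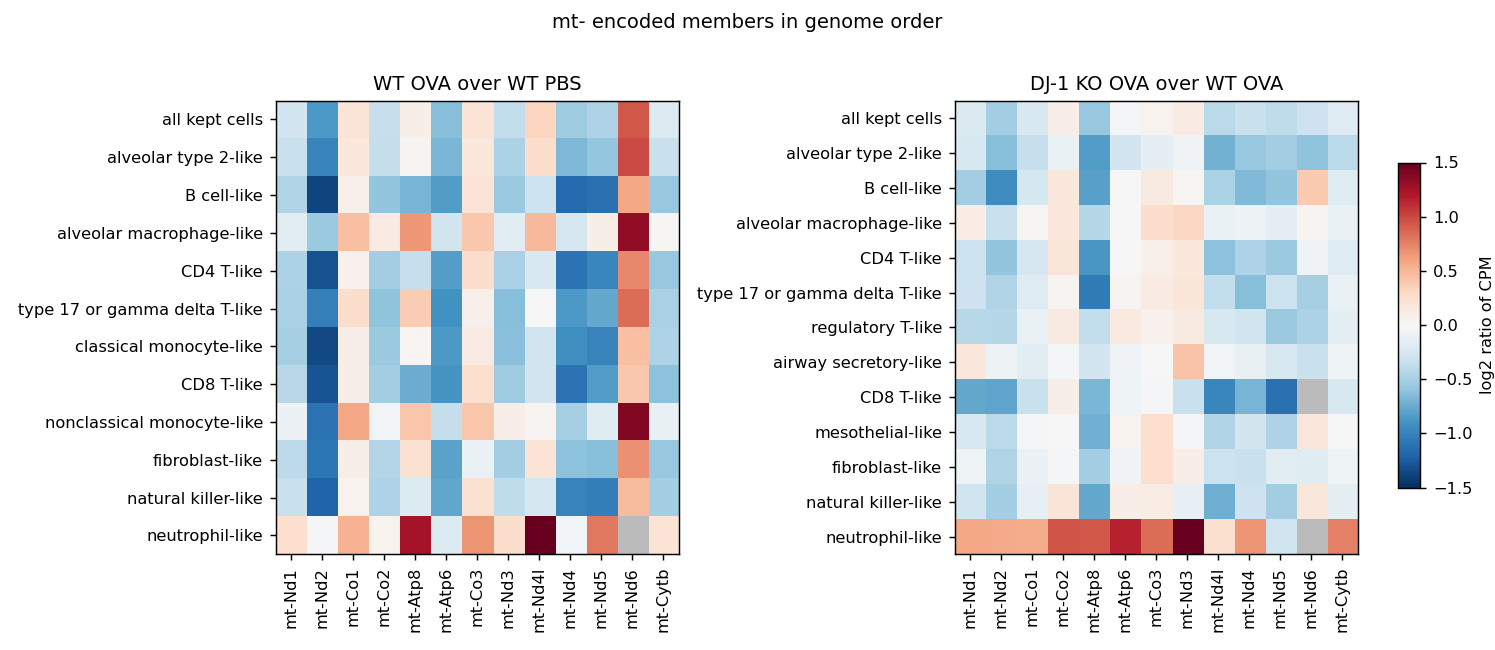
Log2 ratio of CPM (colour, from -1.5 to 1.5) of the 13 mt- genes in genome order (x axis) in each class (y axis), WT OVA over WT PBS at left and DJ-1 KO OVA over WT OVA at right, with grey for under 20 UMIs. At left the mt-Nd2 column is blue and the mt-Co1 column red in 11 of 11 classes, and at right the neutrophil-like row is red for 11 of the 12 genes it holds.

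Few nuclear members were past 1.5-fold over all kept cells. With challenge, the 96 nuclear members had a median log2 ratio of 0.01 [-0.07, 0.12] (the bracket gives the medians of the members' own bounds), with 2 past 1.5-fold higher and 3 lower, where 11.0% and 8.39% of all 15457 genes that reached the floor were past it. Between genotypes, the median was 0.09 [0.00, 0.21], beside 0.07 over all genes, with 4 past 1.5-fold higher and 3 lower, beside 12.9% and 10.3% of 15459 genes. Most of the members are abundant, and the all-gene shares include genes near the floor, where counting error alone is wide. Leaving out both cells of each shared barcode gave a median of -0.05 between genotypes, with 7 members past 1.5-fold lower.

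Complex I, the entry point for NADH, had medians of 0.01 and 0.09 in the 2 comparisons. Ndufs4, an accessory subunit whose loss causes Leigh-like disease in mice (chr13:114287795-114388094, GRCm38.p6, as for all positions here), stood at 65.5, 40.03 and 53.1 CPM. It was the lowest complex I gene with challenge (log2 -0.71) and was higher again in DJ-1 KO OVA (log2 0.41). Ndufc2 was the highest-ratio complex I gene in WT OVA over all kept cells, at 154, 197 and 222 CPM (log2 0.36 and 0.17). Within classes it was higher with challenge in 5 of 11 and lower in 6, with a median of -0.11, and higher between genotypes in 10 of 11. Ndufa7 was lowest in the knockout library, at 209, 200 and 151 CPM (log2 -0.07 and -0.41), and Ndufa13 stood at 226, 185 and 150 CPM (log2 -0.29 and -0.30).

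Complex II, succinate dehydrogenase, is the 1 complex without a mitochondrially encoded subunit, and its 4 genes had medians of 0.27 and 0.38. Sdha, its flavoprotein, stood at 96.5, 126 and 167 CPM (log2 0.39 and 0.40). Sdhc stood at 50.5, 62.3 and 88.0 CPM (log2 0.30 and 0.50) and Sdhd, the other membrane anchor, at 58.9, 69.8 and 89.1 CPM (log2 0.24 and 0.35). Sdhb, the iron-sulphur subunit, was lower in WT OVA, at 66.3, 56.5 and 63.3 CPM (log2 -0.23 and 0.16). The interval lay above 0 for all 4 genes between genotypes, beside 31.8% of all genes, and none passed 1.5-fold. That share, used for the other complexes too, takes in genes with few UMIs, whose intervals are wider. Within classes Sdhc was higher between genotypes in 10 of 10, Sdha in 11 of 12 and Sdhd in 7 of 12, while Sdhb was lower in 6 of 11. Sdhb is given to complete this complex and was chosen after its values were seen.

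Complex III and cytochrome c showed 1 gene past 1.5-fold, Uqcr11 (chr10:80402997-80406821), a small accessory subunit of complex III. It stood at 238, 374 and 454 CPM (log2 0.65 and 0.28). Over all kept cells the complex had medians of 0.00 and 0.13, with 8 of its 9 genes above 0 by interval between genotypes, beside the same 31.8%. Within classes the direction differed between genotypes: Uqcr11 was lower in 8 of 12 and Uqcr10 in 10 of 12, while Uqcrc2 was higher in 9 of 12. Uqcr10 and Uqcrc2 were chosen after their values were seen. Cycs, the somatic cytochrome c that carries electrons to complex IV, stood at 113, 106 and 137 CPM (log2 -0.08 and 0.36).

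Complex IV, cytochrome c oxidase, held the widest spread, with medians of 0.10 and -0.03, and its extremes were the tissue-restricted isoforms described further on. Among its ubiquitous subunits, Cox6a1 (chr5:115345652-115348958) stood at 202, 249 and 377 CPM (log2 0.30 and 0.60) and was past 1.5-fold higher in DJ-1 KO OVA. Cox8a stood at 580, 579 and 453 CPM (log2 0.00 and -0.35), and Cox7b (chrX:106015700-106022450) at 173, 129 and 130 CPM (log2 -0.42 and 0.01). The ubiquitous isoform Cox4i1 stood at 507, 592 and 701 CPM (log2 0.22 and 0.24). Cox6b1, at 318, 326 and 318 CPM, and Cox7a2, at 282, 287 and 298 CPM, differed little.

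Complex V had medians of 0.02 and 0.10, with 10 of 15 genes above 0 by interval between genotypes, again beside 31.8%. Atp5g3 (chr2:73908447-73912464), 1 of 3 genes for the same c subunit of the rotor ring, stood at 215, 311 and 514 CPM (log2 0.53 and 0.73). Its sister genes, which make the same mature protein, followed it less: Atp5g1 stood at 138, 113 and 120 CPM (log2 -0.29 and 0.09) and Atp5g2 at 331, 400.2 and 425 CPM (log2 0.28 and 0.09). Atp5a1, the alpha subunit of the catalytic head, stood at 308, 351 and 540 CPM (log2 0.19 and 0.62), and Atp5f1 (chr3:105942698-105959263), of the stator stalk, at 224, 226 and 332 CPM (log2 0.01 and 0.56). These complex V values are over all kept cells, and within classes the direction differed between genotypes. Atp5g3, Atp5a1 and Atp5f1 were higher in 12 of 12 classes. Atp5j was lower in 10 of 12, and Atp5e, Atp5l, Atp5h and Atp5d in 9 of 12. Atp5e, Atp5h and Atp5d were chosen after their values were seen. The 14 assembly factors and related genes had medians of -0.10 and 0.01. Ndufaf6, a complex I assembly factor, stood at 5.19, 3.53 and 6.33 CPM (log2 -0.55 and 0.84), and Ndufaf5 at 6.66, 5.06 and 6.98 CPM (log2 -0.40 and 0.46), so each was lowest in WT OVA.

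**Figure D3:**
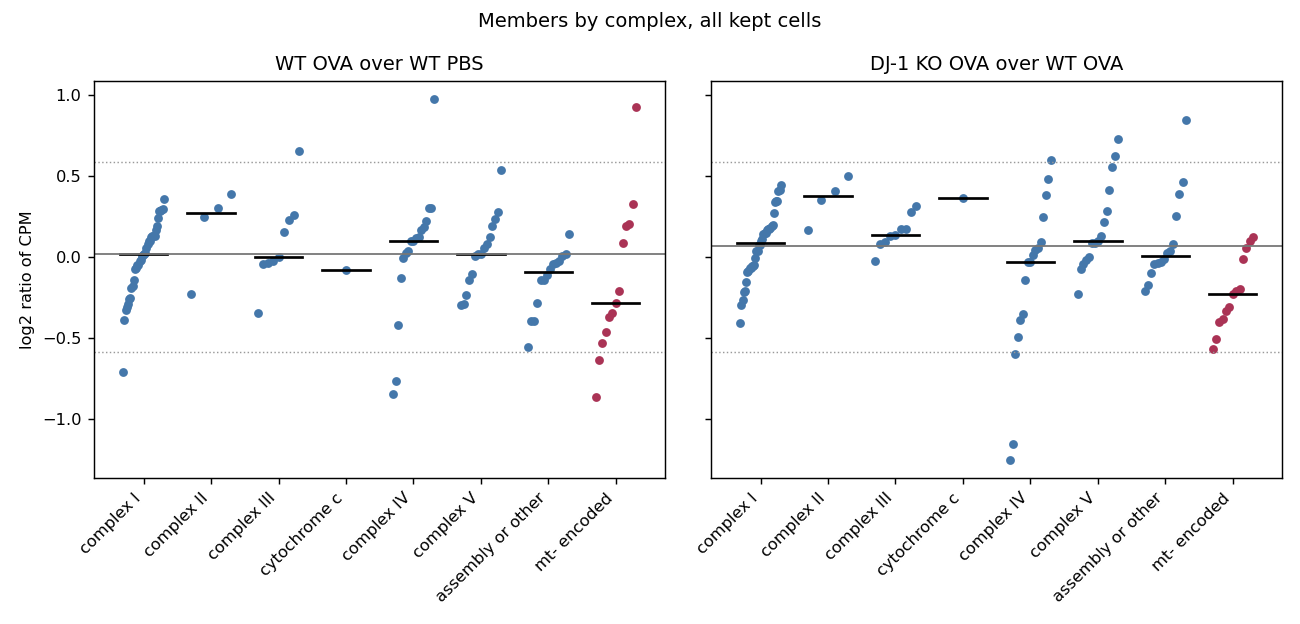
Log2 ratio of CPM (y axis) of every member over all kept cells, by complex (x axis, blue for nuclear and red for mt- encoded members), with black bars for list medians, a grey line for the median of all genes and dotted lines at 1.5-fold. Complex II sits at medians of 0.27 and 0.38, and the mt- members at -0.29 and -0.23.

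A few nuclear members pointed the same way in every described class, in numbers near those of other genes. With challenge, 4 of the 73 nuclear members measured in all 11 classes were higher in each (5.48%, beside 5.83% of 2866 genes) and 5 were lower in each (6.85%, beside 5.79%). The 4 were Uqcr11, Atp5g3, Atp5l and Ndufa3, and the 5 were Ndufs4, Cox7b, Ndufb4, Atp5j and Ndufa13. Ndufa3 was chosen after its values were seen. Ndufs4 ran from -1.45 to -0.53 across classes, with an interval below 0 in 9. Cox7b ran from -1.35 to -0.07, also with 9 intervals below 0. Uqcr11 ran from 0.13 to 0.73, with 7 intervals above 0.

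Between genotypes, 4 of 54 nuclear members were higher in all 12 classes (7.41%, beside 4.45% of 2089 genes): Atp5g3, Atp5a1, Atp5f1 and Cox6a1. None was lower in all, beside 2.35%, and of the 12 mt- members measured in all classes, mt-Nd5 alone was. Atp5g3 ran from 0.11 to 0.91 with an interval above 0 in 10 classes, and Atp5a1 from 0.12 to 0.78 with 11. Atp5f1 ran from 0.09 to 0.83 and Cox6a1 from 0.13 to 0.70. Cox8a was lower in 11 of 12 classes, with a median over classes of -0.93 and an interval below 0 in 10. It stood at 493, 360.1 and 176 CPM in B cell-like cells, at 447, 394 and 209 CPM in CD4 T-like cells and at 947, 792 and 397 CPM in natural killer-like cells. In airway secretory-like cells it was slightly higher, 572 CPM in WT OVA and 626 CPM in DJ-1 KO OVA, and in alveolar macrophage-like cells it was 642, 846 and 794 CPM. Ndufa7 was likewise lower in 11 of 12, with a median of -0.63 and an interval below 0 in 9.

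**Figure D4:**
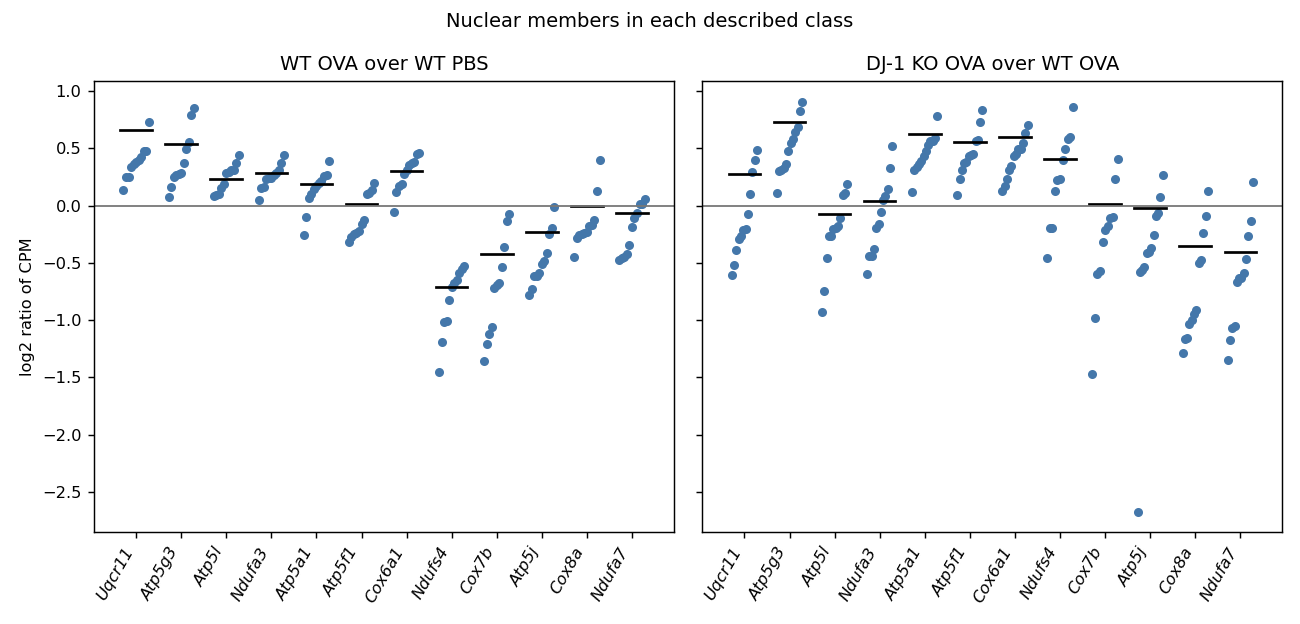
Log2 ratio of CPM (y axis) of 12 nuclear members (x axis) in each described class (1 point per class), WT OVA over WT PBS at left and DJ-1 KO OVA over WT OVA at right, with black bars for the ratio over all kept cells. All 12 points of Atp5g3, Atp5a1, Atp5f1 and Cox6a1 lie above 0 at right, and 11 of 12 points of Cox8a and Ndufa7 lie below.

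Alveolar type 2-like cells, the surfactant-producing epithelium of the air sacs, showed the 2 genomes moving apart. In 307, 776 and 298 cells, the mt- share was 5.49, 4.70 and 3.81% and the nuclear share 1.63, 1.77 and 2.07%, so mt- UMIs per nuclear UMI went 3.38, 2.66 and 1.84. With challenge, 94 nuclear members had a median of 0.06, with 2 past 1.5-fold higher and 3 lower, beside 8.47% and 8.02% of all genes in the class, and the mt- members had a median of -0.33. Cox6b2 went from 15.3 to 28.1 CPM (1.83-fold [1.36, 2.50]) and Atp5l from 402 to 546 CPM at the top, Sdhaf2, a complex II assembly factor, from 19.6 to 11.1 CPM and Ndufv1, the NADH-binding subunit, from 56.0 to 35.2 CPM at the bottom. Between genotypes, the nuclear median was 0.24 with 13 past 1.5-fold higher and 3 lower, beside 17.1% and 8.90%, and the mt- median was -0.41. Cycs went from 86.8 to 158 CPM (1.82-fold [1.59, 2.08]) and Ndufaf4 from 12.2 to 21.4 CPM, whereas Cox6a2 went from 175 to 113 CPM and Cox6b2 from 28.1 to 18.4 CPM.

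The class was not made of the same clusters in the 3 libraries. Cluster 5, led by Lyz1, Sftpc and Sftpb, held most type 2-like cells of WT PBS and WT OVA, and cluster 19, led by Slc26a4, Chia1 and Fxyd4, held 5, 131 and 241 cells, the last being most of the 298 in DJ-1 KO OVA. Within cluster 5 the nuclear share was 1.62, 1.70 and 1.60%, so DJ-1 KO OVA over WT OVA gave 0.941 [0.916, 0.967], below 1. Within cluster 19 it was 1.88 (in 5 cells), 2.01 and 2.14%, and DJ-1 KO OVA over WT OVA gave 1.06 [1.05, 1.08]. The median over nuclear members in cluster 5 alone was -0.10, against 0.24 for the class. The mt- share stayed lower in DJ-1 KO OVA in each, with ratios of 0.899 [0.884, 0.914] in cluster 5 and 0.841 [0.832, 0.850] in cluster 19. In DJ-1 KO OVA, 26.8% of the class carried a barcode shared with WT PBS, with a median of 13106.5 UMIs against 7767.5 in the rest. With both cells of those pairs out, the mt- shares were 5.52, 4.70 and 4.01% and the nuclear shares 1.61, 1.77 and 1.90%.

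Airway secretory-like cells, the club and goblet cells of the bronchial lining, showed the largest nuclear ratio of DJ-1 KO OVA over WT OVA among the 12 classes. The nuclear share was 1.17, 1.28 and 1.60% in 47, 114 and 105 cells. Over 86 nuclear members the median was 0.28, with 10 past 1.5-fold higher and 1 lower, beside 18.4% and 8.71% of all genes. Atp5g3 went from 178 to 313 CPM and Cox6a1 from 138 to 224 CPM. Cox7a2l went from 105 to 79.7 CPM. The mt- share, 3.45, 2.89 and 2.75%, had a ratio of 0.953 [0.944, 0.963] between the OVA libraries. However, 30 of the 47 WT PBS cells and 75 of the 105 knockout cells carried a barcode shared by those libraries, in the knockout with a median of 27549 UMIs against 3264 in the rest. The other 17 WT PBS cells had 6.09% mt- UMIs. In the 30 other knockout cells the nuclear share was 1.33%, and the mt- share 4.42%, above the 2.89% of WT OVA. Different clusters led the class, in DJ-1 KO OVA one headed by Muc5ac and Clca1, genes of goblet cells.

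Alveolar macrophage-like cells, which clear surfactant and particles from the air spaces, had the highest nuclear shares of the classes plotted above, 1.94, 2.18 and 2.21%, in 51, 158 and 174 cells. With challenge, the mt- share was 1.09 times and the nuclear share 1.12 times [1.10, 1.14] as high. Of 89 nuclear members, 6 were past 1.5-fold higher and 7 lower, beside 9.51% and 16.8% of all genes in the class. Atp5g3 stood at 365, 658 and 915 CPM and Uqcr11 at 362, 598 and 732 CPM, while Ndufa12 went from 103 to 60.4 CPM and Ndufs8 from 80.6 to 49.4 CPM. Between genotypes, 90 members had a median of -0.06, with 5 past 1.5-fold higher and 9 lower, beside 12.9% and 17.4%. Ndufs1, which carries electrons within complex I, went from 47.0 to 76.7 CPM and Ndufc1 from 191 to 289.9 CPM. Cox6b2 went from 47.6 to 15.3 CPM (0.322-fold) and Ndufa5 from 87.8 to 48.9 CPM. Of the knockout cells, 38.5% shared a barcode with WT PBS, with a median of 20050 UMIs against 6194 in the rest. Leaving out both cells of each pair gave mt- shares of 3.53, 3.84 and 4.92%, nuclear shares of 1.93, 2.18 and 1.77%, and a nuclear median of -0.39. Most knockout cells lay in a cluster led by Ccl17, Fbp1 and Mmp12, which held 0, 20 and 138 cells. Within it the mt- share was 4.40% in WT OVA and 3.75% in DJ-1 KO OVA, and the nuclear share 2.47 and 2.28%. In a neighbouring cluster, with 107 and 11 cells, the mt- shares were 3.78 and 5.81% and the nuclear shares 2.14 and 2.12%. In the remaining cluster, with 31 and 25 cells, they were 3.71 and 5.25%, and 2.15 and 1.77%. The nuclear share was thus lower in DJ-1 KO OVA in the first and last of these clusters. In the neighbouring one the intervals overlapped, at 2.14% [2.11, 2.17] in WT OVA and 2.12% [2.02, 2.23] in DJ-1 KO OVA. The median cell of the class held 3.36% mt- UMIs in WT OVA and 3.25% in DJ-1 KO OVA.

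Neutrophil-like cells, which rely mainly on glycolysis, had the lowest shares of those classes in each library, 0.42, 0.53 and 0.90% for mt- and 0.63, 0.62 and 0.48% for nuclear members. With challenge, 77 nuclear members had a median of -0.01, with 5 past 1.5-fold higher and 4 lower, beside 16.4% and 8.60%. Atp5g3 went from 30.5 to 53.0 CPM and Cox6a1 from 79.5 to 109 CPM, while Ndufb4 went from 52.7 to 23.5 CPM and Atp5j from 117 to 82.4 CPM. Between genotypes, 57 members had a median of -0.39, with 5 past 1.5-fold higher and 24 lower, beside 19.5% and 17.1%. Cox8a went from 411 to 168 CPM (0.410-fold) and Ndufa7 from 110 to 43.2 CPM, while Atp5f1 went from 152 to 207 CPM and Cox6a1 from 109 to 138 CPM. Of 12 mt- members, 7 were past 1.5-fold higher, with a median of 0.71. Values per cell differed less between libraries: the median cell held 0.25, 0.28 and 0.28% mt- UMIs and the upper quartile 0.41, 0.45 and 0.48%. Airway secretory markers in this class stood at 659, 7875 and 2309 CPM, and their part was not tested.

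In CD4 T-like cells more members of each genome were lower than higher. With challenge, 90 nuclear members had a median of -0.12, with 1 past 1.5-fold higher and 10 lower, beside 14.2% and 6.53% of all genes. Sdha went from 90.0 to 134 CPM, while Ndufs4 went from 74.4 to 41.9 CPM and Atp5j from 213 to 124 CPM. Between genotypes, 87 had a median of -0.18, with 2 past 1.5-fold higher and 10 lower, beside 14.0% and 6.65%. Sdhc went from 32.4 to 61.2 CPM, whereas Cox7b went from 109 to 55.5 CPM and Cox5b, a peripheral subunit of complex IV, from 192 to 100.3 CPM. In the same cells immediate early genes stood at 3774, 5981 and 9305 CPM and ribosomal protein genes at 31.5, 28.5 and 20.3% of UMIs, and their part was not tested.

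Natural killer-like cells gave a similar picture between genotypes, with a median of -0.22 over 84 nuclear members, 1 past 1.5-fold higher and 17 lower, beside 12.0% and 9.54%. Cox8a had a ratio of 0.501, Ndufa5 went from 71.3 to 33.6 CPM, Ndufs1 from 45.3 to 74.0 CPM and Sdhd from 62.4 to 89.1 CPM. Type 17 or gamma delta T-like cells had the lowest nuclear ratio of WT OVA over WT PBS, with a median of -0.26 over 80 members and 4 past 1.5-fold higher and 25 lower, beside 16.5% and 13.6%. Atp5g1 went from 261 to 113 CPM and Cox7b from 281 to 129 CPM. This class had 67 and 103 cells, and the median bounds, -0.91 and 0.27, span 0. Fibroblast-like cells had a median of -0.20 over 92 members in that comparison, with 0 past 1.5-fold higher and 9 lower, beside 7.62% and 10.2%. Ndufs4 went from 56.5 to 28.1 CPM and Atp5g1 from 151 to 95.9 CPM, and the top ratios were those of Atp5g3, from 178 to 212 CPM, and Uqcr11, from 261 to 310 CPM.

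Several complex IV subunits have tissue-restricted isoforms, and most UMIs of some of these came from 1 class. Cox4i2 (chr2:152753916-152765039), the lung-enriched partner of Cox4i1 linked to low oxygen, had 107 of its 116 UMIs (92.2%) in alveolar type 2-like cells, a class that held 19.2% of all UMIs. It stood there at 6.46, 9.85 and 9.58 CPM. Over all kept cells it stood at 1.27, 2.49 and 1.64 CPM, past 1.5-fold higher with challenge and past 1.5-fold lower between genotypes. Cox6a2 (chr7:128205435-128206366), known as the heart and muscle form of Cox6a, had 88.8% of its UMIs in the same class, at 212, 175 and 113 CPM. Its log2 ratio between genotypes was -1.15 over all kept cells and -0.63 [-0.82, -0.44] within the class, which had 776 cells in WT OVA and 298 in DJ-1 KO OVA. In 16 plasmacytoid dendritic-like cells Cox6a2 reached 1509 CPM, with 2012, 1424 and 819 CPM by library and 4.71% of its UMIs.

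Stromal cells had their own set. Ndufa4l2 (chr10:127509274-127517154), a hypoxia-induced paralogue of the complex IV subunit Ndufa4, had 123 of its 124 UMIs in fibroblast-like cells, at 26.0, 16.8 and 12.8 CPM. Cox8b (chr7:140898942-140900446), the heart and muscle form of Cox8, had 48 of 50 there, at 11.1, 7.49 and 2.02 CPM. By CPM, WT PBS was the highest and DJ-1 KO OVA the lowest library for each of these genes, on few UMIs. With challenge, the interval lay below 0 for Ndufa4l2 (log2 -0.62) and spanned 0 for Cox8b (log2 -0.57). Between genotypes, the interval spanned 0 for Ndufa4l2 (log2 -0.40), and Cox8b had too few UMIs for a ratio. Cluster 16 led the class in WT PBS and WT OVA and cluster 7.1 in DJ-1 KO OVA, and the part of this difference was not tested. Cox6b2, known from testis, had 47.6% of its UMIs in fibroblast-like cells, at 122, 101 and 82.9 CPM, with 54.9 CPM in mesothelial-like, 59.7 CPM in ciliated-like and 34.0 CPM in alveolar macrophage-like cells of the 3 libraries together. Cox7a1, the muscle form of Cox7a, was spread more widely, with 46.1% in alveolar type 2-like cells at 9.62 CPM and 18.4 CPM in interstitial macrophage-like cells.

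**Figure D5:**
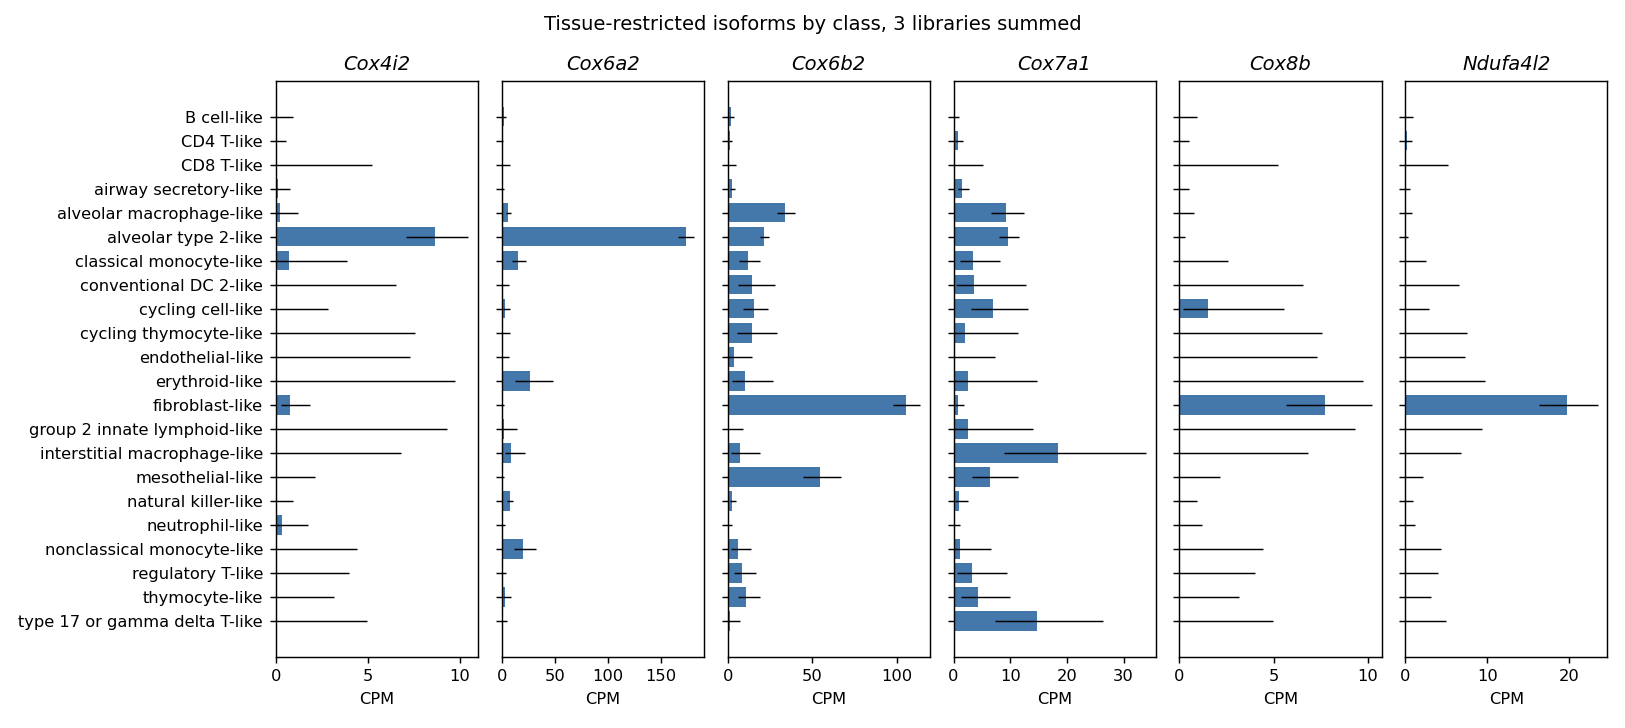
CPM (x axis, its own scale for each gene) of 6 tissue-restricted isoforms in each class (y axis) with at least 50 cells over the 3 libraries, which are summed, with exact Poisson 95% intervals for counting error. Cox4i2 and Cox6a2 peak in alveolar type 2-like cells, at 8.65 and 174 CPM, and Ndufa4l2 and Cox8b in fibroblast-like cells.

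The ubiquitous forms varied by class without being confined to one. Cox4i1 stood at 952 CPM in alveolar macrophage-like and 271 CPM in neutrophil-like cells. Atp5g1 stood at 273 CPM in alveolar macrophage-like and 19.7 CPM in neutrophil-like cells, and Atp5g3 at 714 and 42.8 CPM. Cox8a stood at 818 CPM in natural killer-like cells and at 172 CPM in thymocyte-like cells, of which 30, 9 and 817 came from the 3 libraries. Cox7a2l, a factor for supercomplexes of complexes III and IV, stood at 440.4 CPM in CD4 T-like and 96.6 CPM in airway secretory-like cells.

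Other lists of mitochondrial genes had few members past 1.5-fold. Among 8 regulators of mitochondrial biogenesis the medians were 0.14 and 0.30, with 1 of 8 past 1.5-fold higher each time: the coactivator Ppargc1a in WT OVA, from 5.72 to 12.2 CPM, and its relative Ppargc1b in DJ-1 KO OVA, from 7.33 to 16.5 CPM. Among 11 genes for maintaining and transcribing mitochondrial DNA the medians were 0.07 and 0.13. Tfam, which packages that DNA and starts its transcription, was the lowest in WT OVA, from 37.9 to 26.6 CPM (log2 -0.51). Lrpprc, which stabilises mitochondrial messenger RNA, was the highest in DJ-1 KO OVA, from 26.5 to 42.3 CPM (log2 0.68), 1 of 11 past 1.5-fold. The 33 assembly factors outside the name rule had medians of 0.02 and 0.10, with Ttc19 (log2 -0.72) lowest in WT OVA and Cox20 (log2 0.61) highest in DJ-1 KO OVA. The 77 mitochondrial ribosomal protein genes had medians of -0.10 and 0.17.

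In the 13 genes of the citric acid cycle, which feeds NADH and succinate to the chain, the medians were -0.08 and 0.27, and 10 of 13 intervals lay above 0 between genotypes, beside 31.8% of all genes, with none past 1.5-fold. The share over all genes again takes in genes with few UMIs. The 15 glycolysis genes had medians of -0.03 and 0.17, with Hk2, a hexokinase, at 0.71 and Eno1 at -1.04 on the log2 scale with challenge. Of the lists kept for RNA quality and other cells, 10 immediate early genes had medians of 0.38 and -0.32, the 2 nuclear-retained RNAs -0.17 and -0.42, and 91 cytosolic ribosomal genes, a list that by its name rule also takes in S6 kinase genes, -0.25 and -0.34. The 4 haemoglobin genes had medians of -0.94 and -1.37, with all 4 past 1.5-fold lower each time.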

How the data were processed

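Gene-barcode matrices of raw UMI counts (10x Chromium 3' libraries, mouse whole lung) were deposited by the authors. Per the file headers the matrices were written by software version 3.1.0. Cell Ranger, STAR and the build mm10 are named per the submitters' processing notes. How reads shared by overlapping genes, processed pseudogenes or nuclear copies of mitochondrial genes were assigned is not given in the sources used here.

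Barcodes with at least 200 genes and at most 20% mt- UMIs were kept, doublets called by Scrublet in scanpy 1.11.5 (expected rate 0.06) were removed (57, 162 and 3 cells, so few were called in DJ-1 KO OVA), and the smaller cell of each barcode shared by WT PBS and DJ-1 KO OVA was left out. Cells were clustered jointly without integration (counts scaled to 10000 per cell, 2000 variable genes without the members, 30 principal components, 15 neighbours, Leiden resolution 1 with igraph 0.11.9, mixed clusters split at 0.5) and named from 37 marker lists. For each class of each library, UMIs were added up over cells and divided by their total. Over all kept cells a gene entered a comparison with at least 20 UMIs over the 3 libraries as deposited and any UMI in the pair compared. Within classes it needed at least 20 UMIs over the pair. Exact intervals (binomial for shares, conditional binomial for ratios, Poisson for CPM) came from scipy 1.17.1. Only those for ratios were tested, on simulated Poisson counts that hold counting error alone. No test between groups was run, since each group has 1 library.

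Named genes are the mt- members, the isoforms, the 5 highest and 5 lowest nuclear members with at least 100 UMIs in each comparison, the 2 highest and 2 lowest in each described class, the extremes of each list, and Park7. The extreme of 1 list is not reported here. The members and lists were chosen with earlier results of these data known. Positions are from the RefSeq table for GRCm38.p6. Promoter and protein sequences were not analysed here. Alternatives covered the mt- limit, doublets, shared barcodes, scaling, weights, depth and clustering. A fixed doublet score limit, leaving out thymocyte-like classes, single type 2-like clusters and leaving out both shared cells within classes were added after seeing the data.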

Additional observations from a re-analysis of the deposited data

Results flagged for a closer look

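Some classes ran against the direction of most classes in the same comparison, in the summed share of UMIs. The difference between classes was not tested, since each group has 1 library. In WT OVA against WT PBS, where the mt- share was lower in 8 of 11 classes, it was 1.09 times as high in alveolar macrophage-like, 1.26 times in neutrophil-like and 1.10 times in nonclassical monocyte-like cells. The median cell was lower in WT OVA in the first (3.45 and 3.36%) and the last (2.32 and 2.22%). The nuclear share, lower in the same number of classes, was 1.12 times as high in alveolar macrophage-like, 1.09 times in alveolar type 2-like and 1.08 times in nonclassical monocyte-like cells.

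In DJ-1 KO OVA against WT OVA, where the mt- share was lower in 10 of 12 classes, it was 1.05 times as high in alveolar macrophage-like and 1.70 times in neutrophil-like cells. The median alveolar macrophage-like cell held less, 3.36 and 3.25%, and so did the cluster with most knockout cells, 4.40 and 3.75%. With both cells of each shared barcode out, the mt- share was lower in 7 of 12 classes and the nuclear share in 10. The nuclear share, lower in 8 of 12, was 1.25 times as high in airway secretory-like and 1.17 times in alveolar type 2-like cells. In DJ-1 KO OVA, 71.4% of airway secretory-like, 38.5% of alveolar macrophage-like and 26.8% of alveolar type 2-like cells carried a barcode shared with WT PBS. In each of these classes the median depth of such cells was above that of the other knockout cells.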

How the results depend on the processing

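No paired analysis was possible because each group has 1 library, so there was no replicate to leave out. Of the main results under each alternative, 183 values stayed within the limits set for them, 62 moved beyond them and 3 changed sign. The cause of each move was not tested. The mt- medians over all kept cells were negative in both comparisons under every alternative run, between -0.36 and -0.28 with challenge and between -0.30 and -0.14 between genotypes, and the nuclear median of DJ-1 KO OVA over WT OVA was not stable in sign. Shares are in the order WT PBS, WT OVA, DJ-1 KO OVA.

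Leaving out both cells of shared barcodes gave, between genotypes, a nuclear median of -0.046 (main 0.09) with 7 members past 1.5-fold lower, an mt- median of -0.29 with 5 lower, and -0.36 in alveolar type 2-like cells. It also gave an mt- median of -0.33 with challenge, mt- shares of 3.79% in WT PBS and 3.18% in DJ-1 KO OVA, and a nuclear share of 1.52% in DJ-1 KO OVA. Keeping the smaller cells gave 3.72% mt- and 1.4997% nuclear in WT PBS. Cluster 5 alone gave medians in type 2-like cells of -0.10 for nuclear (main 0.24) and -0.31 for mt- members. Equal weights were given to classes with at least 50 cells in all 3 libraries, which leaves out airway secretory-like cells. They gave -0.14 for nuclear (main 0.09) and -0.14 for mt- members between genotypes, and -0.10 and -0.32 with challenge.

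With cells weighted alike, mt- shares were 3.77, 3.295 and 3.09% and nuclear shares 1.35, 1.37 and 1.37%. The mt- medians were -0.32 with challenge and -0.26 between genotypes, with 4 members past 1.5-fold lower in each, and -0.30 in type 2-like cells for the former. Nuclear members past 1.5-fold were 1 higher and 5 lower in the former, and 5 lower in the latter. Thinning each cell to 1000 UMIs, which left 3721, 5538 and 3467 cells, gave mt- shares of 3.70, 3.19 and 3.08% and nuclear shares of 1.34, 1.39 and 1.44%. With challenge it gave an mt- median of -0.36 with 4 lower and 5 nuclear members lower. Between genotypes it gave -0.28 with 1 lower and 9 nuclear members higher.

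Median-ratio size factors gave mt- medians of -0.31 and -0.30, with 1 mt- member lower and 2 nuclear members higher in DJ-1 KO OVA. No mt- limit gave mt- shares of 3.85, 3.40 and 3.24% and an mt- median of -0.18 between genotypes. A limit of 10% gave mt- shares of 3.61, 3.22 and 2.98% and nuclear shares of 1.498, 1.58 and 1.70%. Totals without mt- UMIs gave nuclear shares of 1.55, 1.62 and 1.75%, and structural subunits alone 1.45, 1.53 and 1.65%. Without thymocyte-like classes the mt- share of DJ-1 KO OVA was 3.13%, with 2 nuclear members past 1.5-fold higher. The UMI floor left 57 nuclear members in neutrophil-like cells between genotypes, against 94 in alveolar type 2-like cells.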
